A study of Mus musculus with 12 samples.

Results

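The genes described here encode the plasma proteins of the complement and coagulation cascades and of fibrinolysis, most of which the liver makes. A list of 43 gene symbols, 23 for complement and 20 for coagulation and fibrinolysis, was chosen with earlier results of these data known. It was matched to the 15846 genes of the deposited table, and all 43 were found. RNA was sequenced from whole livers of 12 C57BL/6 mice aged 5 months, in 4 groups of 3. The groups were Shp Hep-/- mice on the diet labelled HFCF (KO HFCF), WT mice on HFCF (WT HFCF), Shp Hep-/- mice on chow (KO chow) and WT mice on chow (WT chow). Shp is the nuclear receptor gene Nr0b2, and Hep-/- marks its deletion in hepatocytes. The driver of the deletion, the sex of the mice and the make-up of the diet are not given in the sources used here.

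The 12 libraries held 13967116 to 18324134 counts, and a filter on low counts left 14736 genes, all 43 of the set among them. The lowest count of any of the 43 in a library was 428. Nr0b2 stood at 0.509, 0.21 and 0.394 CPM (counts scaled to library size with TMM factors) in KO HFCF livers, against 47.6, 49.6 and 53.4 CPM in WT HFCF livers. On chow, Nr0b2 had 0.775, 0.552 and 1.01 CPM in KO livers, against 49.3, 22.4 and 31.0 CPM in WT livers. The summed level of 10 hepatocyte marker genes (among them Apoa1, Ttr and Cps1) was 63800 to 64500 CPM in KO HFCF, 55300 to 61600 in WT HFCF, 60400 to 70100 in KO chow and 67600 to 71500 in WT chow livers. WT HFCF replicate 1 stood apart from its group, as chi-square values per degree of freedom were 35.25 against replicate 2 and 37.79 against replicate 3, while those 2 compared with each other gave 12.24. The labels name no batch and do not say how the mice of a group were housed or handled. A difference in housing or handling between groups could not be told apart from genotype or diet. The p-values set group differences against the spread between livers, estimated over the 4 groups together.

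Complement is a proteolytic cascade of innate immunity. It is started by C1q bound to antibody, by mannose-binding lectins on microbial sugars, or by slow activation of C3, and it ends in a pore of terminal components in the target membrane. Coagulation is a parallel cascade of serine proteases that ends when thrombin turns fibrinogen into fibrin, which plasmin later dissolves. Hepatocytes secrete nearly all of these proteins, and several rise in plasma during the acute phase response to inflammation, whereas C1q is made mainly by macrophages.

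The promoters of 5 genes are shown because the 3 fibrinogen genes differed together and because C3 and C8b had the largest differences between genotypes on HFCF. Each sequence is the 250 bases before the RefSeq transcription start (build GRCm38.p6), 5′ to 3′ on the gene's strand. Capitals mark exact matches, on either strand, to a STAT motif (TTCNNNGAA), a C/EBP motif (TTGCNNAA) or an NR5A2 motif (CAAGGNCA). The motif for HNF4A (CAAAGTCCA) had no match in these 5 windows. The windows are chr3:83007474-83007723 (plus strand) for Fgg, chr3:83025903-83026152 (plus) for Fga, chr3:83049864-83050113 (minus) for Fgb, chr17:57228137-57228386 (minus) for C3 and chr4:104766067-104766316 (plus) for C8b.
Fgg: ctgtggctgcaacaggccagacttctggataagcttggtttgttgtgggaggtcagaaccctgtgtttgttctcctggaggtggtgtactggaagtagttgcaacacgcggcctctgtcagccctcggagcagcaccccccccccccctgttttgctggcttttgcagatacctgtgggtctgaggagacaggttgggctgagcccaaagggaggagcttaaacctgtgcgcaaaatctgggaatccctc
Fga: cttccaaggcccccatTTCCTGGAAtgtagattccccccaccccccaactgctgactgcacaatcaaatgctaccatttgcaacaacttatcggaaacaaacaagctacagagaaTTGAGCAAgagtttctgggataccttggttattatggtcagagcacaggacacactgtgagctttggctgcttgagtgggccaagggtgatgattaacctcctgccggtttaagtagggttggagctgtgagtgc
Fgb: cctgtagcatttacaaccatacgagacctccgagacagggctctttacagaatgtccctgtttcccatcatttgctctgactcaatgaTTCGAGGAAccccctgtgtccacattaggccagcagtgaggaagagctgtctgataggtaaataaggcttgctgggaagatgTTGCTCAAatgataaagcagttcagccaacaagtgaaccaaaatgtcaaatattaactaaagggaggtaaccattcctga
C3: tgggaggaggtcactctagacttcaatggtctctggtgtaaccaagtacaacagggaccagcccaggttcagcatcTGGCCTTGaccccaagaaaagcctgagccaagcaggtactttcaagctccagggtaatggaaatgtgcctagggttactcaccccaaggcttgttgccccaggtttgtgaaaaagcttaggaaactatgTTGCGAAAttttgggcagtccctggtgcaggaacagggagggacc
C8b: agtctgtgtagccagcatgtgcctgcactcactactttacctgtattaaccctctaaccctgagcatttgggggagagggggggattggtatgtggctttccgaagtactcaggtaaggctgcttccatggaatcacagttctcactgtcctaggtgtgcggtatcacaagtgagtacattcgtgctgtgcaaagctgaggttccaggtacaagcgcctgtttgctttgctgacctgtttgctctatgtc

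The Fga window held the STAT match 234 to 226 bases before the start and the C/EBP match 135 to 128 bases before it, and the Fgb window held them at 162 to 154 and at 80 to 73. C3 held the C/EBP match 45 to 38 bases before the start and the NR5A2 match, on the opposite strand, at 174 to 167. The Fgg and C8b windows held no match to any of the 4 motifs. RefSeq promoters were found for 32 of the 43 genes, 34 windows in all because C1s and C8g had 2 each. The STAT motif was in 17.6% of these windows (C8a, F9, Fga, Fgb, Masp2 and Pros1), against 7.02% of all 32851 promoters. The C/EBP motif was in 20.6% (C1s, C3, C9, F11, F9, Fga and Fgb), against 9.56%, and the NR5A2 motif in 8.82% (C3, F10 and Serpinc1), against 5.53%. The HNF4A motif was in 0 of the 34, against 0.384%. None of the motifs overlapped another in the 5 printed windows, and a match is only a match of letters.

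Levels were compared between genes as FPKM, which is per length of the gene model. Over the 12 livers the 3 fibrinogen chains and C3 were the most abundant of the set. Fgb averaged 3010 FPKM, C3 1980, Fgg 1780 and Fga 1710. Vtn followed at 1110 FPKM and Serpinc1 at 1040 FPKM. Another 24 genes lay between 100 and 1000 FPKM and 13 lay under 100, down to Masp1 at 17.3 FPKM. Of the 100 genes with the highest FPKM in the table, 8 were from the set. The 43 genes took 5.83% to 6.11% of all counts in KO HFCF livers, against 3.42% to 4.19% in WT HFCF livers. They took 4.97% to 6.27% in KO chow livers, against 4.36% to 5.06% in WT chow livers. On HFCF the ranges of the genotypes did not overlap, and on chow they did. A few abundant genes made up most of the difference on HFCF. C3 and Cfb together averaged 1.62% in KO HFCF, against 0.676% in WT HFCF livers, and the 3 fibrinogen genes 1.55%, against 1.05%. The 10 coagulation factors averaged 0.725%, against 0.631%, and the 4 anticoagulants 0.344%, against 0.313%.

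**Figure D1:**
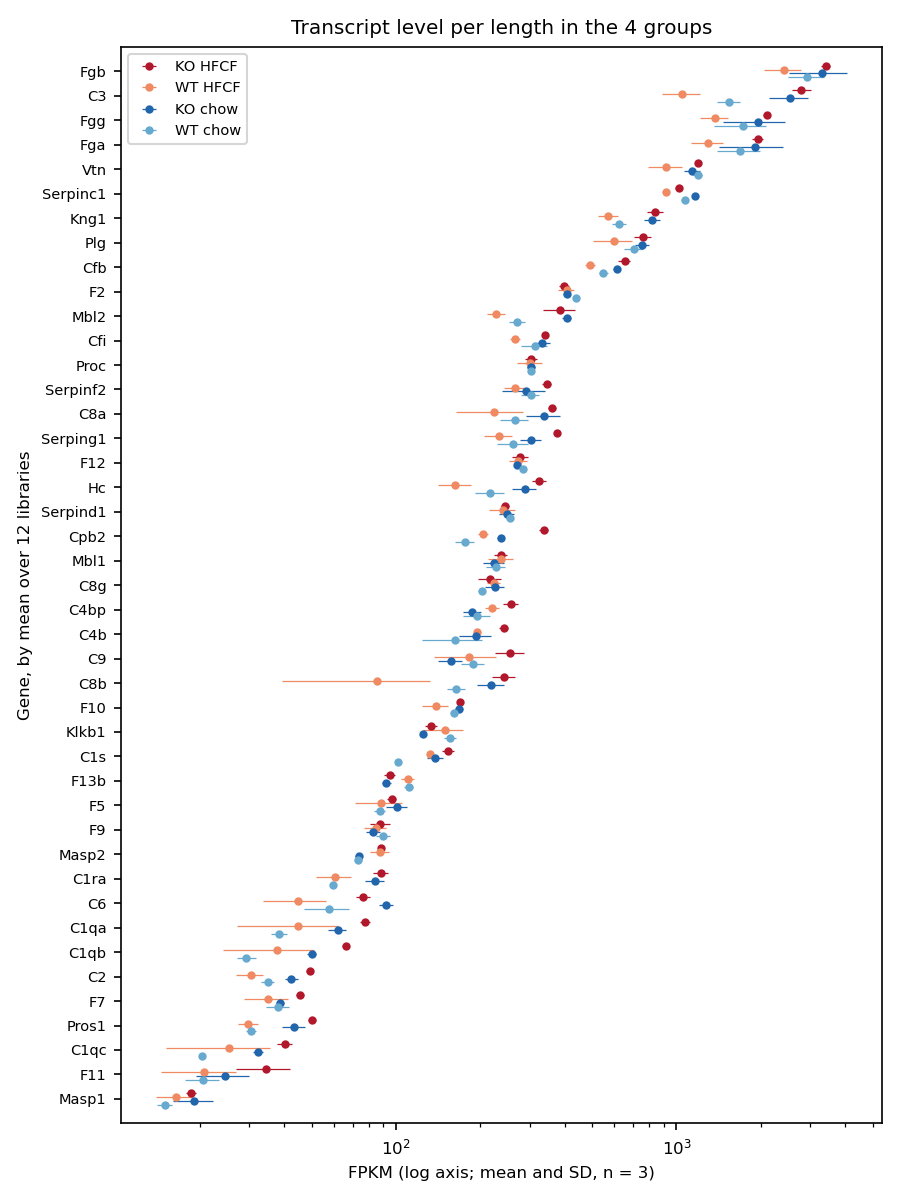
FPKM of each gene (log axis) in the 4 groups, as mean and SD of 3 livers, with genes ordered by their mean over 12 livers. Levels span 17.3 FPKM for Masp1 to 3010 FPKM for Fgb, and the WT HFCF points of C3 and C8b lie left of the other groups.

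The first comparison asked how livers without hepatocyte Shp differed from WT livers on HFCF. Of the 43 genes, 28 rose in KO and 0 fell, by edgeR's quasi-likelihood test with Benjamini-Hochberg adjustment over all tested genes at 0.05. Of all tested genes, 10.6% rose and 8.52% fell, and of the 2860 genes with a mean CPM at least that of the lowest gene of the set, 11.1% rose and 18.2% fell. Because the list was chosen with earlier results of these data known, these shares describe the set and are no independent test of it. Before adjustment, 31 of the 43 were higher and 0 lower at p under 0.05, a count not taken over all genes. DESeq2 called 30 up and 0 down, and edgeR called 25 without WT HFCF replicate 1, all of them up. Over all tested genes these fits called 2696 and 2631, against 2814 in the main fit. The median log2 fold change was 0.44 over the set and 0.02 over all tested genes. The calls covered 7 of 11 initiation genes, both of C3 and Cfb, 5 of 6 terminal genes, 3 of 4 complement regulators, 4 of 10 coagulation factors, all 3 fibrinogen genes, 1 of 4 anticoagulants and all 3 fibrinolysis genes. In 32 of the 43, all 3 KO livers lay above all 3 WT livers, against 18.5% of all tested genes.

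On chow, 12 of the 43 genes rose in KO livers and 2 fell, namely F13b and Klkb1, while 9.72% of all tested genes rose and 5.82% fell. Of the 2860 genes with a mean CPM at least that of the lowest gene of the set, 5.66% rose and 15.3% fell. The median log2 fold change was 0.13 over the set and 0.00 over all tested genes. All 12 genes that rose on chow also rose on HFCF, and 16 rose on HFCF without a call on chow. This split was not counted over all genes, and edgeR's interaction test, given below, called none of the 43. Among those 16, some other fits called C2 and C8b up and C9 down on chow. The calls on chow came to 9 without WT chow replicate 2 or KO chow replicate 2, and to 8 without WT chow replicate 3 or KO chow replicate 3. Calls over all tested genes also fell in these fits, from 2289 in the main fit to between 1152 and 1691.

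HFCF against chow raised 4 of the 43 genes in KO livers and lowered 0, while 1.47% of all tested genes rose and 1.18% fell. Of the 2860 genes at or above the lowest of the set in mean CPM, 2.87% rose and 1.5% fell. The count came to 1 without replicate 1 of either KO group, 2 without KO HFCF replicate 2 and 8 without WT HFCF replicate 1. Calls over all tested genes, 390 in the main fit, moved the same way. They came to 157 without KO chow replicate 1 and 169 without KO HFCF replicate 1. They came to 178 without KO HFCF replicate 2 and 776 without WT HFCF replicate 1. In WT livers the diet raised 1 and lowered 5, while 7.76% of all tested genes rose and 5.9% fell. Of the same 2860 genes, 11.9% rose and 11.7% fell, and the 11.6% of the set that fell is near that share. Of the 10 hepatocyte markers, 0 rose and 4 fell with the diet in WT, 0 rose and 0 fell with it in KO, 2 rose and 2 fell in KO against WT on HFCF, and 0 rose and 2 fell in KO against WT on chow; their part in these results was not tested. The WT count came to 2 without WT chow replicate 1 and 3 without WT chow replicate 3. Calls over all tested genes fell there too, from 2013 to 1255 and 1100. The medians over the set were 0.17 in KO and -0.13 in WT. The comparisons with WT on HFCF and with chow in WT share the WT HFCF livers, and those of KO share the KO livers. Of the 43 genes, 10 were called in no comparison by the main edgeR fit (C4b, Mbl1, Masp1, C8g, F2, F5, F9, F12, Proc and Serpind1), though some other fits called C4b. The matching count over all genes was not taken.

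**Figure D2:**
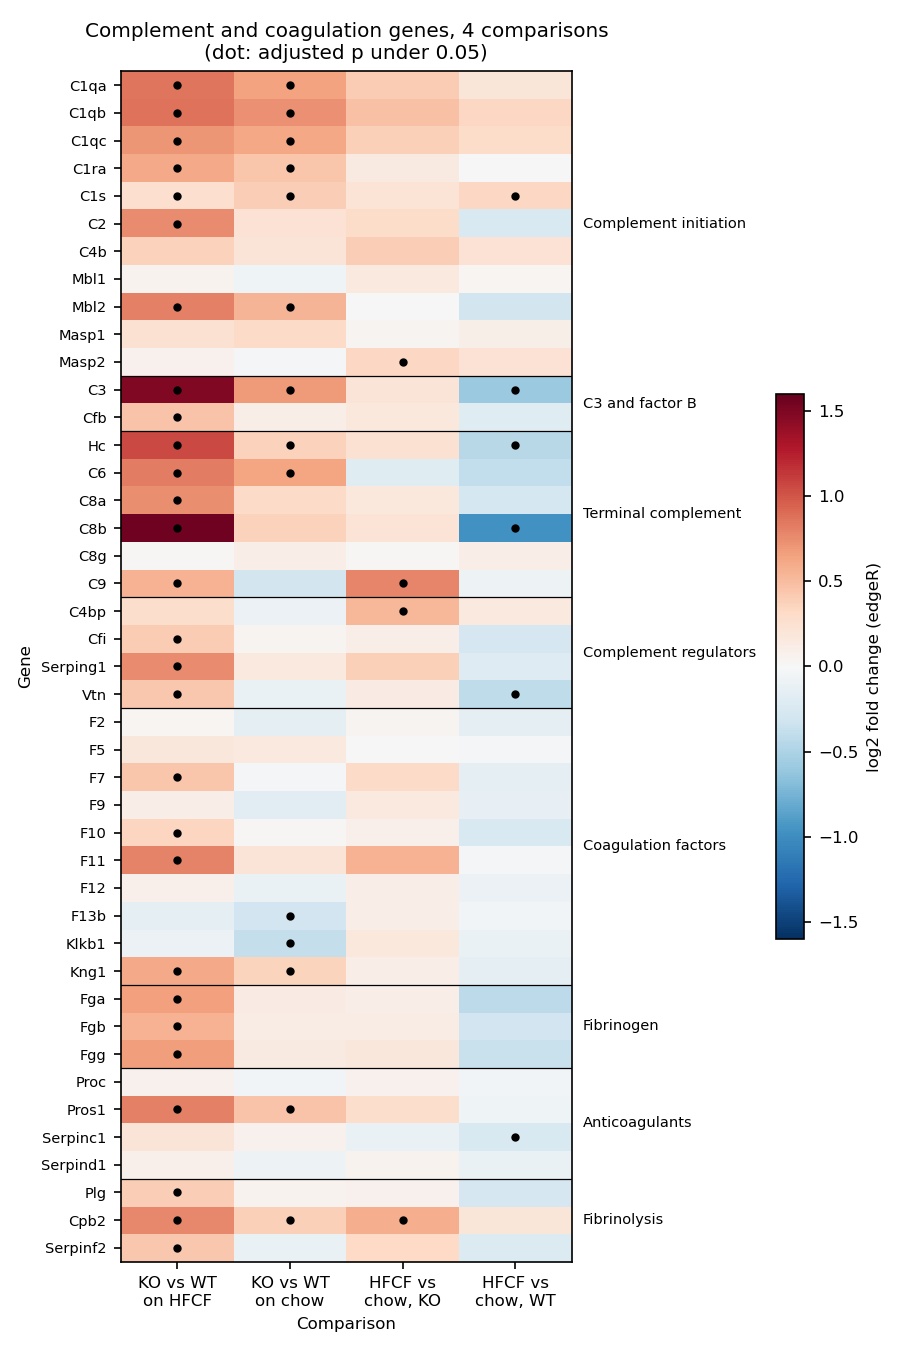
log2 fold changes (color, edgeR) of the 43 genes (vertical axis, ordered by role) in the 4 comparisons (horizontal axis), with a dot at each adjusted p under 0.05. The left column holds 28 dots, all at positive values up to 1.56 for C8b, and the right column holds 5 dots at negative values and 1 at a positive value.

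Whether the genotype difference depended on the diet was tested as an interaction, the log2 difference on HFCF minus that on chow. It was positive for 40 of the 43 genes, with a median of 0.28, against -0.001 over all tested genes. But edgeR called none of the 43, against 0.794% of all tested genes. Before adjustment, 17 were higher and 0 lower at p under 0.05, a count not taken over all genes. DESeq2 called 8 (C3, Hc, C2, C9, Vtn, Serping1, Cfb and Cpb2), with adjusted p from 0.00427 for Hc to 0.0361 for Cpb2, and limma voom called 0. DESeq2 also called more genes in all, 344 against 117 by edgeR. The lowest edgeR values were those of C2 (0.52 ± 0.12, adjusted p = 0.0621), Hc (0.68 ± 0.16, 0.0725), C3 (0.80 ± 0.20, 0.0783) and C9 (0.86 ± 0.21, 0.0825), where ± is the standard error. Without KO chow replicate 2, edgeR called C3 (adjusted p = 0.0322) and Serpinf2 (0.0418), and without WT HFCF replicate 2 it called C2 (0.0275).

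**Figure D3:**
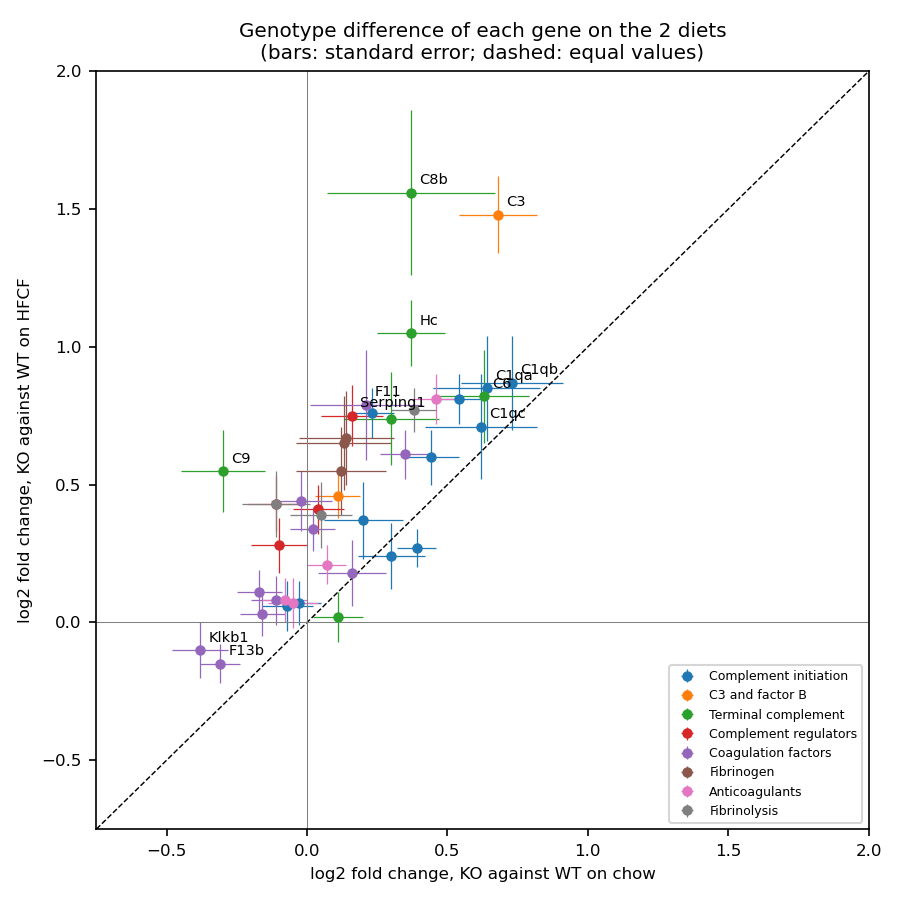
log2 fold change of KO against WT on HFCF (vertical axis) and on chow (horizontal axis) for each of the 43 genes, with standard errors derived from edgeR's test statistic and colors for roles. The dashed line marks equal values, and 40 genes lie above it.

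C3 (mm10 chromosome 17, 57203974 to 57228136, minus strand), the central component that all routes of complement activation cleave, was higher in KO livers on both diets and lower with the diet in WT livers. It stood at 13800, 14500 and 15900 CPM in KO HFCF livers, against 4350, 5850 and 5680 CPM in WT HFCF livers. On chow, C3 had 11900, 15400 and 11100 CPM in KO livers, against 8510, 8270 and 7180 CPM in WT livers. Every KO liver lay above every WT liver on the same diet, and every WT HFCF liver lay below every WT chow liver. In KO, C3 rose by a log2 of 1.48 ± 0.14 on HFCF, or 2.78-fold (edgeR adjusted p = 1.49e-05), and of 0.68 ± 0.14 on chow (edgeR adjusted p = 0.00585). With the diet, C3 fell by 0.59 on the log2 scale in WT (edgeR adjusted p = 0.013), though not without WT chow replicate 1 (0.0585). In KO the diet value was 0.20 ± 0.14 (edgeR adjusted p = 0.48). Cfb, the protease subunit of the alternative pathway convertase, rose on HFCF (1900, 1780 and 2010 CPM in KO, against 1320, 1450 and 1360 CPM in WT, log2 fold change 0.46 ± 0.08, edgeR adjusted p = 0.00122).

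Of the terminal components, C5 (gene Hc) and C8b had the largest differences on HFCF. Hc (chromosome 2, 34983331 to 35061438, minus strand), whose product C5 yields the inflammatory peptide C5a and seeds the membrane pore, stood at 2150, 2150 and 1960 CPM in KO HFCF livers, against 857, 1080 and 1080 CPM in WT HFCF livers. On chow, Hc had 1580, 1960 and 1770 CPM in KO livers, against 1540, 1330 and 1250 CPM in WT livers. The genotypes did not overlap on either diet. Hc rose in KO by a log2 of 1.05 ± 0.12 on HFCF (edgeR adjusted p = 5.06e-05) and of 0.37 ± 0.12 on chow (edgeR adjusted p = 0.0471). The call on chow ended in 8 of 12 fits that left out 1 library (edgeR adjusted p = 0.0533 to 0.176), namely those without WT chow replicate 2 or 3, KO chow replicate 2 or 3, WT HFCF replicate 2 or any KO HFCF replicate. Other endings came from adding the replicate number as a block (0.0632), from RLE scaling (0.0531) and from testing without a filter (0.0519). With the diet in WT, Hc fell by 0.45 (edgeR adjusted p = 0.0213). That fall lost its call without replicate 1 of WT HFCF (0.0716) or of WT chow (0.106), with only the compared groups (0.0523) or with 3 libraries left out together (0.163). Those 3 were replicate 1 of WT HFCF, replicate 2 of KO chow and replicate 1 of WT chow, picked after the data were seen.

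C8b (chromosome 4, 104766317 to 104804548, plus strand), which encodes the beta chain of the pore component C8, stood at 579, 677 and 644 CPM in KO HFCF livers, against 88.1, 321 and 237 CPM in WT HFCF livers. On chow, C8b had 510, 525 and 599 CPM in KO livers, against 381, 449 and 434 CPM in WT livers. WT HFCF replicate 1 was the lowest of the 12 by a wide margin. The rise in KO on HFCF was 1.56 ± 0.30 on the log2 scale (edgeR adjusted p = 0.00305), and it was called in every fit that left out 1 library. On chow the genotypes did not overlap, but C8b was not called (0.37 ± 0.30, edgeR adjusted p = 0.437). It was called there by edgeR with only the compared groups (0.0293) or without WT HFCF replicate 1 (0.0416). With the diet in WT, C8b fell by 0.97 (edgeR adjusted p = 0.0479). That call ended in 10 of 12 fits that left out 1 library, all but those without WT HFCF replicate 1 or 2 (0.0557 to 0.116), and with DESeq2 (0.0715), RLE scaling (0.0504) and only the compared groups (0.123). Its log2 value ranged from -1.38 to -0.59 over the 21 other fits. C8a, the alpha chain encoded by the neighboring gene, rose in KO on HFCF by 0.74 ± 0.17 (edgeR adjusted p = 0.00677), and C6 by 0.82 ± 0.17 (edgeR adjusted p = 0.00354). C6 also rose on chow (0.63 ± 0.16, edgeR adjusted p = 0.0209), except without WT chow replicate 1 (0.0814) or KO chow replicate 1 (0.055) or 3 (0.0536). C8g, the lipocalin chain of C8, stood at 362, 293 and 343 CPM in KO HFCF, against 315, 352 and 317 CPM in WT HFCF livers, which overlap (log2 fold change 0.02 ± 0.09, edgeR adjusted p = 0.909).

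C9, the component that polymerizes into the pore, differed with the diet in KO livers. It stood at 709, 722 and 585 CPM in KO HFCF livers, against 330, 512 and 532 CPM in WT HFCF livers. On chow, C9 had 388, 366 and 422 CPM in KO livers, against 529, 476 and 447 CPM in WT livers. KO livers thus lay above WT livers on HFCF and below them on chow. C9 rose in KO on HFCF (0.55 ± 0.15, edgeR adjusted p = 0.0205) and was not called on chow (-0.30 ± 0.15, edgeR adjusted p = 0.193), except as a fall without WT HFCF replicate 1 (0.0444). It rose with the diet in KO by 0.78 ± 0.15 (edgeR adjusted p = 0.0148). The genotype call on HFCF ended without KO HFCF replicate 1 (0.0762) or 2 (0.0896) and with only the compared groups (0.0619). The diet call in KO ended without replicate 1 (0.063) or 2 (0.066) of KO HFCF or replicate 1 (0.067) or 2 (0.0597) of KO chow.

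**Figure D4:**
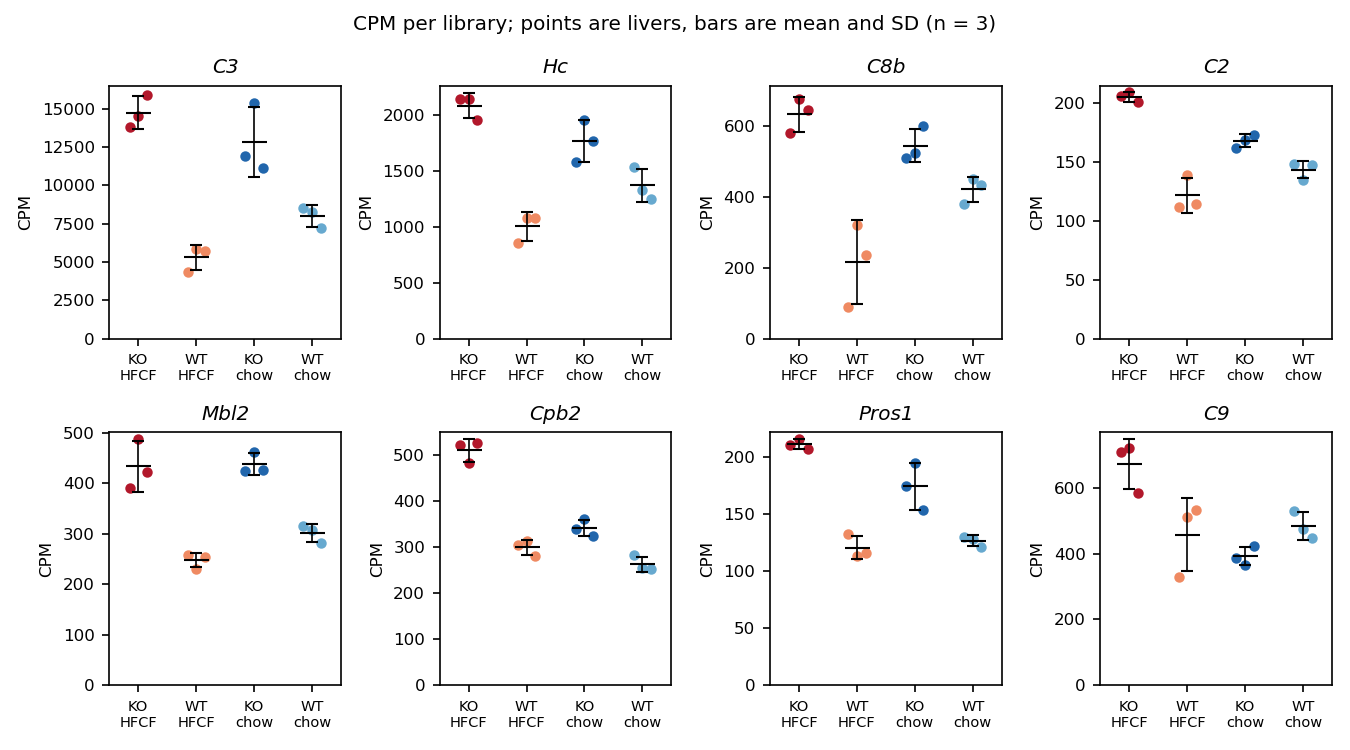
CPM (vertical axes, from 0) of C3, Hc, C8b, C2, Mbl2, Cpb2, Pros1 and C9 in each of the 12 livers by group, with mean and SD of 3. In all 8 panels the KO HFCF points lie above the WT HFCF points, and in the C8b panel WT HFCF replicate 1 lies at 88.1 CPM.

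Among the genes that start the cascade, Mbl2, a mannose-binding lectin, rose in KO on both diets, while its relative Mbl1 was called in neither. Mbl2 (chromosome 19, 30232928 to 30239685, plus strand) stood at 390, 488 and 423 CPM in KO HFCF livers, against 258, 231 and 254 CPM in WT HFCF livers. On chow, Mbl2 had 424, 463 and 426 CPM in KO livers, against 316, 307 and 282 CPM in WT livers. The genotypes did not overlap on either diet. The log2 fold changes were 0.81 ± 0.09 on HFCF (edgeR adjusted p = 6.64e-05) and 0.54 ± 0.09 on chow (edgeR adjusted p = 0.00221). Mbl1 stood at 231, 208 and 236 CPM in KO HFCF, against 192, 235 and 222 CPM in WT HFCF livers, and its values were 0.06 ± 0.09 on HFCF and -0.07 ± 0.09 on chow (edgeR adjusted p = 0.732 and 0.634). Masp2, the lectin pathway protease, rose with the diet in KO, with 301, 299 and 298 CPM in KO HFCF, against 234, 243 and 239 CPM in KO chow livers (0.33 ± 0.08, edgeR adjusted p = 0.0386). In WT, Masp2 had 288, 312 and 259 CPM on HFCF, against 251, 243 and 239 CPM on chow, and edgeR did not call it, though DESeq2 (0.24, adjusted p = 0.0188), limma voom (0.22, 0.0497) and edgeR with a minimum count of 50 (0.24, 0.0403) or without WT HFCF replicate 3 (0.29, 0.0199) did. The Masp2 call ended in 9 of 12 fits that left out 1 library, all but those without a WT HFCF replicate (0.0512 to 0.146), with the replicate number as a block (0.0522) and with 3 libraries left out together (0.0733), and the row overlaps Tardbp on the opposite strand.

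Of the classical pathway proteases, C1ra and C1s rose in KO on both diets. C1ra stood at 259, 283 and 273 CPM in KO HFCF livers, against 151, 196 and 192 CPM in WT HFCF livers. On chow, C1ra had 236, 241 and 262 CPM in KO livers, against 180, 179 and 185 CPM in WT livers. The log2 fold changes were 0.60 ± 0.10 and 0.44 ± 0.10, with no overlap on either diet (edgeR adjusted p = 0.000726 and 0.00753). C1s stood at 561, 564 and 523 CPM in KO HFCF livers, against 463, 451 and 450 CPM in WT HFCF livers. On chow, C1s had 443, 485 and 489 CPM in KO livers, against 363, 355 and 366 CPM in WT livers. C1s rose in KO by 0.27 ± 0.07 on HFCF (edgeR adjusted p = 0.0176) and by 0.39 ± 0.07 on chow (edgeR adjusted p = 0.00354), and with the diet in WT by 0.33 ± 0.07 (edgeR adjusted p = 0.00913), a call that ended with 3 libraries left out together (0.0699). The C1s call on HFCF ended without WT HFCF replicate 2 (0.056) or KO HFCF replicate 1 (0.0752) or 2 (0.0893), and with only the compared groups (0.0723). The rows of C1ra, C1rb and C1s overlap, as does a transcript on the strand opposite to C1s, and reads they share cannot be told apart here.

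C2, the protease subunit of the classical convertase, stood at 206, 209 and 201 CPM in KO HFCF livers, against 112, 139 and 114 CPM in WT HFCF livers. On chow, C2 had 162, 169 and 173 CPM in KO livers, against 148, 135 and 147 CPM in WT livers. C2 rose in KO on HFCF (0.76 ± 0.09, edgeR adjusted p = 5.48e-05) and was not called on chow (0.23 ± 0.08, edgeR adjusted p = 0.0796). On chow edgeR called C2 with only the compared groups (0.0488) or without WT HFCF replicate 2 (0.0388). The rows of C2 and of its neighbor Cfb overlap another row of the same strand with a mean of 1740 CPM, so reads of these rows cannot be told apart. C4b stood at 1490, 1390 and 1370 CPM in KO HFCF livers, against 1130, 1080 and 1080 CPM in WT HFCF livers, without overlap (0.37 ± 0.14, edgeR adjusted p = 0.0804). C4b was called there by edgeR with only the compared groups (0.0285), without WT chow replicate 1 (0.0367) and with 3 libraries left out together (0.0201). Its counts may be split with those of its near copy C4a.

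The 3 C1q genes, C1qa, C1qb and C1qc, lie beside each other on chromosome 4 and encode the chains of the antibody-binding subunit. C1qa stood at 80.7, 81.3 and 86.9 CPM in KO HFCF livers, against 65.9, 40.8 and 30.9 CPM in WT HFCF livers. On chow, C1qa had 60.0, 62.5 and 66.2 CPM in KO livers, against 42.6, 40.4 and 38.0 CPM in WT livers. C1qb stood at 77.3, 71.7 and 73.2 CPM in KO HFCF, against 56.4, 37.3 and 27.6 CPM in WT HFCF livers, and C1qc at 80.4, 73.4 and 84.8 CPM, against 69.7, 45.3 and 30.6 CPM. In all 3 genes WT HFCF replicate 1 was the highest of its group and lay below every KO HFCF liver. On chow C1qb stood at 53.5, 52.5 and 54.1 CPM in KO, against 34.7, 31.4 and 30.6 CPM in WT livers, and C1qc at 61.8, 59.8 and 61.7 CPM, against 39.3, 39.9 and 39.9 CPM. Within each library, per length, C1qa was at 1.09 to 1.35 times and C1qc at 0.577 to 0.736 times the FPKM of C1qb.

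The C1q genes rose in KO on both diets. On HFCF the log2 fold changes were 0.85 ± 0.19 for C1qa, 0.87 ± 0.17 for C1qb and 0.71 ± 0.19 for C1qc (edgeR adjusted p = 0.0059, 0.00345 and 0.0204). On chow they were 0.64 ± 0.19, 0.73 ± 0.18 and 0.62 ± 0.20 (edgeR adjusted p = 0.0344, 0.0143 and 0.0477). The C1qc call on HFCF ended without WT HFCF replicate 2 (0.073) or KO HFCF replicate 1 (0.0549) or 3 (0.0758), and with only the compared groups (0.0823). With the diet in WT, C1qb (0.54, 0.0164) and C1qc (0.54, 0.0192) were called by edgeR only without WT HFCF replicate 3. In KO the diet values were 0.40 for C1qa, 0.47 for C1qb and 0.38 for C1qc. The main fit called none of them (edgeR adjusted p = 0.272, 0.159 and 0.324). With only the compared groups, edgeR called all 3 (0.0174, 0.00519 and 0.0235). Without WT HFCF replicate 1 it called C1qa (0.0244) and C1qb (0.0113). On chow the C1qb call ended without WT chow replicate 3 (0.0614), and the C1qa call without any one of the chow replicates (0.0618 to 0.118) or KO HFCF replicate 1 (0.0502). The C1qc call on chow ended in 10 of 12 such fits, all but those without WT HFCF replicate 1 or 3 (0.0593 to 0.123), and with limma voom (0.0514).

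Markers of Kupffer cells, the resident macrophages of the liver, moved with C1q. Of all tested genes, 10.6% rose in KO on HFCF and 9.72% on chow. Of 11 Kupffer cell markers, 8 rose and 0 fell in KO on HFCF, and 4 rose and 0 fell on chow. Their summed level was 1020 to 1050 CPM in KO HFCF livers, against 563 to 916 CPM in WT HFCF livers, with WT HFCF replicate 1 at 916 CPM. On chow it was 830 to 864 CPM in KO livers, against 617 to 632 CPM in WT livers. None of the 11 was at 0 in any group. Clec4f, a lectin found on Kupffer cells, had log2 fold changes in KO of 0.67 on HFCF and 0.38 on chow, both called. Cd163, a scavenger receptor of these cells, stood at 45.9, 37.8 and 39.3 CPM in KO HFCF livers, against 11.9, 18.7 and 17.1 CPM in WT HFCF livers, with WT HFCF replicate 1 the lowest. Cd163 fell with the diet in WT by 1.11 (edgeR adjusted p = 0.000676). Slc40a1 (-0.04 ± 0.09), Emr1 (0.29 ± 0.22) and Marco (1.19 ± 0.67) were not called in KO on HFCF, where their groups overlapped. Of 9 markers of monocytes and lipid-associated macrophages, 3 rose in KO on HFCF and 9 on chow. In whole livers, fewer cells of a type and less RNA per cell cannot be told apart, and the part of these cells in the C1q result was not tested.

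**Figure D5:**
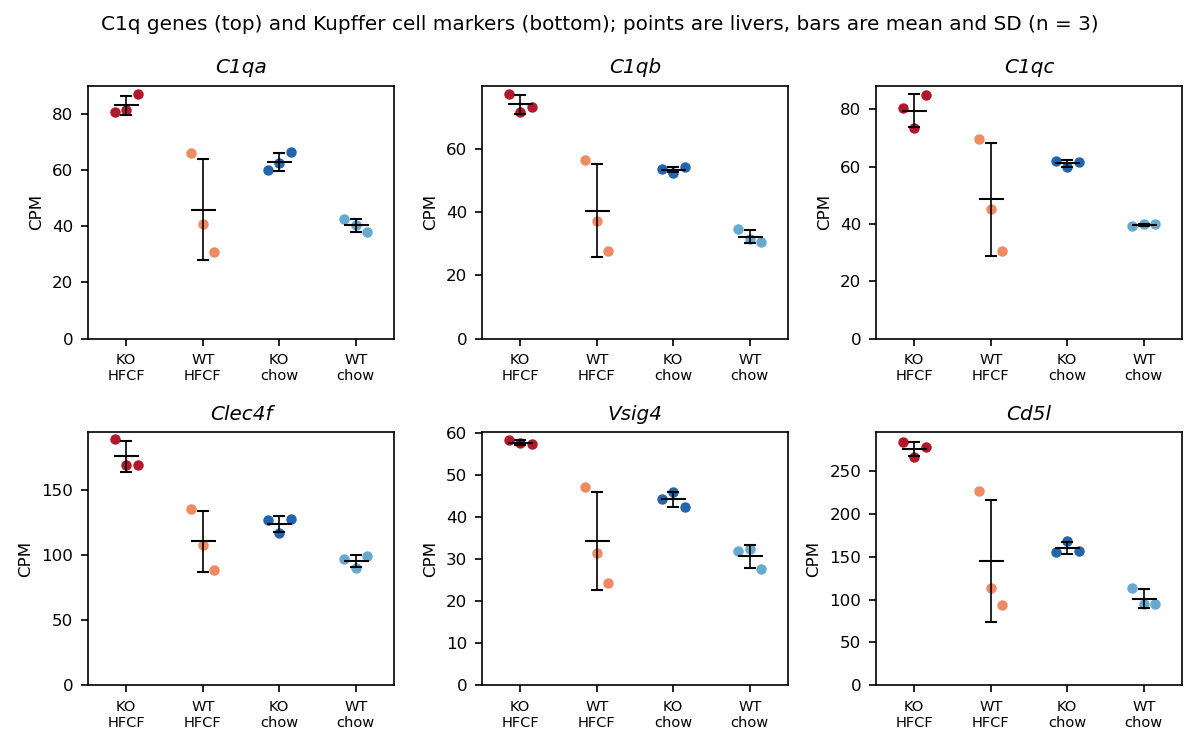
CPM (vertical axes, from 0) of the C1q genes (top) and of 3 Kupffer cell markers (bottom) in each of the 12 livers by group, with mean and SD of 3. In these 6 panels KO points lie above WT points on both diets and WT HFCF replicate 1 is the highest WT HFCF point, while 8 further markers, Cd163 among them, are not plotted.

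Of the complement regulators, Serping1, Cfi and Vtn rose in KO on HFCF. Serping1, the C1 inhibitor, which also blocks kallikrein, stood at 864 to 924 CPM in KO HFCF livers, against 466 to 573 CPM in WT HFCF livers (0.75 ± 0.11, edgeR adjusted p = 0.00047). Cfi, the protease that inactivates C3b and C4b, was at 718 to 730 CPM in KO HFCF, against 531 to 557 CPM in WT HFCF livers (0.41 ± 0.09, edgeR adjusted p = 0.00478). Vtn, vitronectin, which blocks pore assembly, stood at 2540, 2410 and 2470 CPM in KO HFCF livers, against 1550, 2040 and 1940 CPM in WT HFCF livers. On chow Vtn stood at 2110, 2450 and 2250 CPM in KO livers, against 2520, 2410 and 2420 CPM in WT livers. It rose in KO on HFCF by 0.43 ± 0.10 (edgeR adjusted p = 0.00971) and fell with the diet in WT by 0.41 (edgeR adjusted p = 0.0173). That fall lost its call without WT chow replicate 1 (0.0681) or 3 (0.0509), with only the compared groups (0.054) and with 3 libraries left out together (0.0902).

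C4bp, a cofactor that limits the classical convertase, rose with the diet in KO. It stood at 880, 755 and 798 CPM in KO HFCF livers, against 710, 651 and 639 CPM in WT HFCF livers. On chow, C4bp had 519, 606 and 559 CPM in KO livers, against 673, 558 and 575 CPM in WT livers. The diet value in KO was 0.53 ± 0.10 (edgeR adjusted p = 0.0107). It was no longer called without replicate 1 of KO HFCF (0.0504) or of KO chow (0.0626). Between genotypes on HFCF, C4bp was not called by edgeR (0.28 ± 0.10, adjusted p = 0.0572), though the groups did not overlap. It was called by DESeq2 (0.0393) and limma voom (0.0453), and by edgeR with upper quartile scaling (0.0495), without WT HFCF replicate 1 (0.0465) and with 3 libraries left out together (0.029).

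Most coagulation factors were not called between genotypes on HFCF. F7, F10, F11 and Kng1 rose, while F2, F5, F9, F12, F13b and Klkb1 were not called. F2, prothrombin, stood at 1900, 1780 and 1960 CPM in KO HFCF livers, against 1730, 2000 and 1790 CPM in WT HFCF livers, and did not pass the test (0.03 ± 0.08, edgeR adjusted p = 0.848). Kng1, the bradykinin precursor, stood at 2670, 2580 and 2940 CPM in KO HFCF, against 1620, 1900 and 1840 CPM in WT HFCF livers. It rose by 0.61 ± 0.09 on HFCF (edgeR adjusted p = 0.000519) and by 0.35 ± 0.09 on chow (edgeR adjusted p = 0.024). The chow call of Kng1 ended without WT chow replicate 2 (0.0912) or 3 (0.0768) or KO chow replicate 2 (0.0955) or 3 (0.0508), or with 3 libraries left out together (0.0625), and the paralog Kng2 may share its reads. F11 rose by 0.79 ± 0.20 (edgeR adjusted p = 0.014), F7, the partner of tissue factor, by 0.44 ± 0.11 (0.0111) and its neighbor F10, the prothrombin activator, by 0.34 ± 0.08 (0.0112). These calls ended without KO HFCF replicate 2 (0.0512 for F7 and 0.0847 for F11), WT HFCF replicate 3 (0.0511 for F11) or KO HFCF replicate 3 (0.0528 for F10), with 3 libraries left out together (0.0558 for F11 and 0.0579 for F10) and with only the compared groups (0.0542 for F10).

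F13b and Klkb1 were the 2 of the 43 genes that fell in KO on chow. F13b, the carrier subunit of factor XIII, stood at 248, 256 and 239 CPM in KO HFCF livers, against 262, 276 and 286 CPM in WT HFCF livers. On chow, F13b had 239, 225 and 223 CPM in KO livers, against 281, 277 and 296 CPM in WT livers. Klkb1, plasma prekallikrein, stood at 409, 423 and 392 CPM in KO HFCF livers, against 357, 488 and 470 CPM in WT HFCF livers. On chow, Klkb1 had 366, 366 and 358 CPM in KO livers, against 441, 487 and 488 CPM in WT livers. On chow the groups did not overlap in either gene, and on HFCF they overlapped in Klkb1. On chow F13b fell by 0.31 (edgeR adjusted p = 0.0103) and Klkb1 fell by 0.38 (edgeR adjusted p = 0.0275) on the log2 scale. The Klkb1 call ended without WT chow replicate 2 or 3 or any KO chow replicate (0.0639 to 0.0893), and its row overlaps Cyp4v3 on the same strand.

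The fibrinogen genes Fga, Fgb and Fgg, whose windows are printed above, lie side by side on chromosome 3 and moved together. Fga (83026153 to 83034114, plus strand) stood at 6110, 5500 and 6080 CPM in KO HFCF livers, against 3250, 4310 and 3700 CPM in WT HFCF livers. On chow, Fga had 4150, 7080 and 5240 CPM in KO livers, against 5810, 4180 and 5020 CPM in WT livers. The genotypes were apart on HFCF and overlapped on chow, where KO replicate 2 and WT replicate 1 were the highest of their groups. Fgb (83042247 to 83049803, minus strand) stood at 5980, 5410 and 5870 CPM in KO HFCF, against 3350, 4610 and 3810 CPM in WT HFCF livers, with 4010, 6620 and 5270 CPM in KO chow, against 5540, 4230 and 4830 CPM in WT chow livers. Fgg (83007859 to 83015053, plus strand) stood at 4420, 4060 and 4230 CPM in KO HFCF, against 2320, 2980 and 2660 CPM in WT HFCF livers, with 2820, 4740 and 3680 CPM in KO chow, against 4100, 2760 and 3350 CPM in WT chow livers. The same livers were high and low in all 3 genes. Per length, Fga was 0.523 to 0.599 times and Fgg 0.54 to 0.628 times Fgb in each of the 12 libraries.

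All 3 fibrinogen genes rose in KO on HFCF, with log2 fold changes of 0.65 ± 0.17 for Fga, 0.55 ± 0.16 for Fgb and 0.67 ± 0.17 for Fgg (edgeR adjusted p = 0.0173, 0.0316 and 0.0148). The Fgg call ended without KO HFCF replicate 1 (0.051), and that of Fga without WT HFCF replicate 1 (0.0546) or KO HFCF replicate 1 (0.0555) or 3 (0.0615). The Fgb call ended without WT HFCF replicate 1 or 3 or any KO HFCF replicate (0.0654 to 0.0962). On chow the values were 0.12 to 0.14 and none was called. Other acute phase genes were also called in KO on HFCF. Of 17 such genes outside the set, 15 rose in KO on HFCF and 6 on chow, 10 rose with the diet in KO, and 1 rose and 3 fell with the diet in WT, whereas no fibrinogen gene was called in those last 3 comparisons. Of all tested genes, 10.6% rose in KO on HFCF and 9.72% on chow. With the diet 1.47% rose in KO, and 7.76% rose and 5.9% fell in WT. The summed level of the 17 genes was 31900 to 35900 CPM in KO HFCF livers, against 12100, 11100 and 10200 CPM in WT HFCF livers, where the summed fibrinogen level was 8930, 11900 and 10200 CPM. WT HFCF replicate 1 was thus the highest of its group in one sum and the lowest in the other. On chow the acute phase sum was 15300 to 22100 CPM in KO livers, highest in replicate 2, against 12500 to 17300 CPM in WT livers, highest in replicate 1, and the fibrinogen sum was highest in the same livers. Their part in the fibrinogen and complement results was not tested.

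Among anticoagulants, Pros1 rose in KO on both diets. Pros1 (chromosome 16, 62854307 to 62929346, plus strand) encodes protein S, a cofactor of activated protein C. It stood at 210, 216 and 207 CPM in KO HFCF livers, against 132, 113 and 116 CPM in WT HFCF livers. On chow, Pros1 had 174, 195 and 153 CPM in KO livers, against 130, 128 and 121 CPM in WT livers. The genotypes did not overlap, with log2 fold changes of 0.81 ± 0.09 on HFCF and 0.46 ± 0.09 on chow (edgeR adjusted p = 5.06e-05 and 0.00448). Proc, protein C itself, was at 0.07 ± 0.09 on HFCF and -0.05 ± 0.09 on chow (edgeR adjusted p = 0.658 and 0.728). Serpinc1, antithrombin, stood at 2230, 2220 and 2340 CPM in KO HFCF livers, against 1900, 2010 and 1960 CPM in WT HFCF livers. On chow, Serpinc1 had 2510, 2460 and 2380 CPM in KO livers, against 2300, 2270 and 2410 CPM in WT livers. Between genotypes on HFCF edgeR did not call it (0.21 ± 0.07, adjusted p = 0.0572), but DESeq2 (0.00712), limma voom (0.0348), and edgeR with upper quartile scaling (0.0383) or a minimum count of 50 (0.036) did. Serpinc1 fell with the diet in WT by 0.25 (edgeR adjusted p = 0.0354). That fall lost its call in 8 of 12 fits that left out 1 library, namely any WT replicate or KO HFCF replicate 2 or 3 (0.052 to 0.13), with the replicate number as a block (0.0602), with only the compared groups (0.1) and with 3 libraries left out together (0.147).

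The fibrinolysis genes Plg, Cpb2 and Serpinf2 all rose in KO on HFCF. Cpb2 (chromosome 14, 75242287 to 75283551, plus strand), which encodes the thrombin-activated carboxypeptidase that slows fibrinolysis and inactivates C5a, was called in 3 of the 4 comparisons. It stood at 521, 481 and 525 CPM in KO HFCF livers, against 303, 313 and 280 CPM in WT HFCF livers. On chow, Cpb2 had 338, 360 and 324 CPM in KO livers, against 281, 253 and 251 CPM in WT livers. The KO HFCF livers lay above all other livers. Cpb2 rose in KO by 0.77 ± 0.08 on HFCF (edgeR adjusted p = 3.48e-05) and by 0.38 ± 0.08 on chow (edgeR adjusted p = 0.0077), and with the diet in KO by 0.58 ± 0.08 (edgeR adjusted p = 0.00184). In WT the diet value was 0.19 ± 0.08 (edgeR adjusted p = 0.142). Serpinf2, the plasmin inhibitor, was at 808 to 844 CPM in KO HFCF, against 549 to 663 CPM in WT HFCF livers (0.43 ± 0.12, edgeR adjusted p = 0.0206). Plg, plasminogen, was at 2010 to 2280 CPM, against 1330 to 1810 CPM (0.39 ± 0.12, edgeR adjusted p = 0.0283). The Cpb2 calls held in all 21 other fits, but the call of Serpinf2 ended without WT HFCF replicate 1 or any KO HFCF replicate (0.0588 to 0.0812), and that of Plg without WT chow replicate 2 (0.053), WT HFCF replicate 1 (0.0752) or KO HFCF replicate 2 (0.0865) or 3 (0.129), with only the compared groups (0.0745) and with 3 libraries left out together (0.0588).

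A further list held 50 genes of both cascades that were in the table, such as receptors, membrane regulators and factors made outside hepatocytes. In KO on HFCF, 14 of them rose and 5 fell, while 10.6% of all tested genes rose and 8.52% fell, so that the share of the list that fell was near that of all genes. Cfd, the adipose-derived factor D that cleaves factor B, stood at 0.654, 0.49 and 1.01 CPM in KO HFCF livers, against 104, 217 and 130 CPM in WT HFCF livers (-7.65 ± 0.39, edgeR adjusted p = 4.46e-08). Fcna, a ficolin of the lectin pathway, rose by 0.89 ± 0.10, F13a1, the catalytic subunit of factor XIII, by 3.17 ± 0.54, Serpina10, an inhibitor of factor X, by 0.80 ± 0.10 and Clu, clusterin, by 0.49 ± 0.08. F13a1 held 1 to 65 counts per library. On chow 11 rose and 1 fell in KO, or 22.0% and 2.0%, against 9.72% and 5.82% of all tested genes, with the complement receptor subunit Itgax at 2.57 ± 0.34, the plasminogen activator Plat at 2.14 ± 0.46, thrombomodulin (Thbd) at 0.88 ± 0.17 and F8 at 0.26 ± 0.06, and the protease inhibitor Serpine2 at -1.35 ± 0.20. The F8 call ended without any WT chow replicate or KO chow replicate 2 (0.052 to 0.0673), and with 3 libraries left out together (0.105).

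With the diet in KO, 2 of these 50 genes rose, Clu (0.40 ± 0.08) and Fcna (0.41 ± 0.10), and Cd55, a membrane regulator that speeds the decay of convertases, fell by 0.50. These were 4.0% up and 2.0% down, against 1.47% and 1.18% of all tested genes. The Clu call ended without replicate 1 or 3 of either KO group (edgeR adjusted p = 0.0593 to 0.0854), and that of Cd55 without KO HFCF replicate 1 or 3 or KO chow replicate 1 or 2 (0.0765 to 0.11), or with 3 libraries left out together (0.0509). Fcna lost its call without any one chow library or KO HFCF replicate 1 or 2 (0.0523 to 0.166). With the diet in WT, 8 rose and 2 fell, while 7.76% of all tested genes rose and 5.9% fell, and again the share that fell was near that of all genes. Cfd rose by 5.98 ± 0.34 on the log2 scale (edgeR adjusted p = 4.25e-07), Anxa2, a plasminogen receptor, by 1.80 ± 0.29, F3, tissue factor, by 0.85 ± 0.20 and F8 by 0.38 ± 0.06, while Serpine2 fell by 0.88. The F3 call ended without WT chow replicate 1 (0.0513) or WT HFCF replicate 1 (0.0525), or with 3 libraries left out together (0.174).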

How the data were processed

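Livers of 12 mice, 3 per group, were profiled by RNA sequencing of stranded, ribosomal RNA-depleted libraries, per the labels' protocols. Per the file headers, the deposited table holds raw read counts for Ensembl genes in 12 columns. FPKM columns beside them were made by the authors, per the file headers, and every FPKM value matched count over gene length over a library total. The genome build named in the submitters' processing notes is mm10. The strand setting, the counting tool and the aligner are not given in the sources used here. Deposited starts counted from 0 and are given here from 1. Groups and replicate numbers came from the labels.

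Genes passing filterByExpr (minimum count 10, minimum total 15) were fitted with TMM scaling by edgeR 4.0.16 (glmQLFit and glmQLFTest, R 4.3.3) as 4 group means over 12 libraries. Calls were made at a Benjamini-Hochberg adjusted p under 0.05 over 14736 genes. CPM used TMM factors. Standard errors (±) were derived as the absolute log2 fold change over the square root of edgeR's quasi-likelihood F statistic. FPKM entered no test. The genes and lists were chosen with earlier results of these data known. By rule, values in every library are given for up to 5 called genes of the set with the lowest adjusted p per comparison and direction, and for C1q and fibrinogen genes. From the further list of 50 genes, up to 5 called per comparison are named. A few other genes were added after their values were seen. Library pairs within a group differed by more than sampling noise (chi-square over degrees of freedom 12.24 to 37.79), so none was treated as a repeat.

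Other settings were upper quartile and RLE scaling, a minimum count of 50, no filter, DESeq2 1.42.0, limma voom (3.58.1), the replicate number as a block, a fit of only the compared groups and leaving out each library. Leaving out 3 libraries together (WT HFCF 1, KO chow 2 and WT chow 1) was chosen after seeing the data. On simulated counts for 14501 genes, changes of log2 1 and 2 were recovered in 84% and 98% of genes for KO against WT on HFCF, 86% and 97% for the diet in KO, and 64% and 90% for the interaction. Of 193 genes called for KO against WT on HFCF, 11 were unchanged. The changes were put only into KO HFCF, in a small part of the genes, all with a mean CPM over 1. All groups shared the other means, and no library was made to stand apart as WT HFCF replicate 1 did. The real fit called 2814 genes in that comparison, so the simulated shares may not hold for it. Smaller changes, such as the set's medians of 0.44 on HFCF and 0.28 for the interaction, were not simulated, so their recovery is not known. No change was simulated for KO against WT on chow or for the diet in WT. Tables and plots were made in Python 3.11.15 using pandas 2.3.3 and matplotlib 3.10.9.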

Additional observations from a re-analysis of the deposited data

Results flagged for a closer look

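Among the genes of the 2 cascades tested here, the diet effect differed between KO and WT livers by edgeR's interaction test for Cfd and Fcna, neither of them in the set of 43. For Cfd the difference, KO minus WT, was -6.88 ± 0.75 on the log2 scale (edgeR adjusted p = 0.0034), and it was called in all 20 alternative fits. Cfd stood at 0.654, 0.49 and 1.01 CPM in KO HFCF and 0.996, 1.31 and 1.89 CPM in KO chow, against 104, 217 and 130 CPM in WT HFCF livers and 1.72, 1.42 and 3.94 CPM in WT chow livers. Of the 5 adipose markers listed, Adipoq, Plin1, Retn and Lep had no row, and only Car3 was in the table. Car3 stood at 342 to 492 CPM in KO HFCF and 163 to 549 CPM in KO chow livers, against 4110 to 5000 CPM in WT HFCF and 752 to 1130 CPM in WT chow livers. It was thus abundant in WT chow livers, where Cfd was low, so it is no specific marker of adipose cells here. In KO on chow Car3 fell (log2 fold change -1.48, edgeR adjusted p = 0.00736), whereas Cfd was not called (-0.77, 0.325). The part of adipose cells in the Cfd result was not tested.

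For Fcna the difference was 0.69 ± 0.14 (edgeR adjusted p = 0.0423), and it ended in 11 of 20 alternative fits, namely those that left out any 1 library but WT HFCF replicate 1 (0.0539 to 0.105). Fcna stood at 69.1, 75.7 and 61.4 CPM in KO HFCF and 54.0, 52.4 and 48.5 CPM in KO chow, against 42.3, 33.5 and 35.2 CPM in WT HFCF livers and 44.0, 44.0 and 46.9 CPM in WT chow livers.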

How the results depend on the processing

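The counts below are of the 43 genes called. For KO against WT on HFCF, the 28 calls became 24 to 30 under the 9 other settings and 21 to 29 when 1 library was left out, and 17 of the 28 genes were called in every fit. For KO against WT on chow, 14 calls became 13 to 16 and, with 1 library left out, 8 to 16, with 7 called in every fit. For the diet in KO, the 4 calls became 7 with DESeq2, 8 with only the compared groups, 9 with 3 libraries left out together and 1 to 8 with 1 left out, and Cpb2 was called in every fit. For the diet in WT, the 6 calls became 10 with limma voom, 2 with only the compared groups, 2 with 3 libraries left out together and 2 to 8 with 1 left out, and none of the 6 was called in every fit. For the interaction, 0 calls became 8 with DESeq2 (which called 344 genes in all, against 117 by edgeR), 1 with 3 libraries left out together and 0 to 2 with 1 left out. Calls over all tested genes moved as well. With 1 library left out they were 2042 to 2834 for KO against WT on HFCF (2814 in the main fit). On chow they were 1152 to 2788 (2289). For the diet they were 157 to 776 in KO (390) and 1100 to 2264 in WT (2013). For the interaction they were 11 to 136 (117). The causes of these differences were not tested. No called gene changed direction in any fit. With the replicate number as a block, the counts were 28, 13, 3, 5 and 0. Same-numbered libraries had deviations from their group means that correlated at -0.148 to 0.167 over 18 pairs, 4 of them over 0.1. These values gave no clear sign that the numbers pair the livers, but with 3 livers per group they cannot exclude it. Scaling by RLE or upper quartile left the median of all genes between -0.008 and 0.039.

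With 3 livers per group, differences as small as those of F2 or Proc could not be told from 0. Counts of genes whose rows overlap others (C2, Cfb, C1ra, C1s, Masp2, Klkb1) or that have near copies (C4b, Kng1) are uncertain.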
